A study of Mus musculus with 2 samples.

Results

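The 40 genes described here are transcripts that dividing cells need to copy their DNA and to separate it, read as unique molecular identifiers (UMIs, 1 per captured mRNA molecule) in immune cells of a mouse brain tumour. They were a list of names, chosen without a cutoff on a measured value, and all 40 were among the 31053 genes of both deposited tables. They were split into 15 replication genes (Mcm2, Mcm3, Mcm4, Mcm5, Mcm6, Mcm7, Pcna, Tyms, Tk1, Gins2, Ung, Slbp, Hells, Rrm1 and Rrm2), 22 mitosis genes (Mki67, Top2a, Cdk1, Ccnb1, Ccnb2, Ccna2, Birc5, Tpx2, Cenpf, Cenpe, Cenpa, Ube2c, Kif11, Cep55, Aurka, Aurkb, Bub1, Plk1, Nusap1, Tacc3, Cdc20 and Cks2) and 3 genes put in neither list (Stmn1, Hmgb2 and Hist1h2ap).

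The cells came from C57BL/6 mice with no named mutation or transgene that carried GL261 tumours, a mouse glioma line placed in the brain of animals with an intact immune system. Both groups carried the tumour and were taken on day 20. One group drank DW control water and the other drank water with metformin, a biguanide used against diabetes; its dose, the start of dosing, the age of the mice and the number of mice pooled are not given in the sources used here. CD45hi cells, those with high surface CD45, an antigen of leukocytes, were sorted from the dissected tumour region, and each group is 1 library. No value below has a replicate check, therefore, and every interval (95%) covers counting error only, not differences between mice, sorts or libraries.

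A cell that enters the cycle first loads the Mcm2 to Mcm7 helicase onto its origins, then makes deoxynucleotides and histones while it replicates, and last assembles the spindle and destroys cyclin B to leave mitosis. The E2F factors switch on many replication genes. The DREAM complex, the repressor form of MuvB, holds many mitosis genes off, and activator forms of MuvB switch them on later in the cycle. Activated T cells divide in lymph nodes and can go on dividing in a tumour, whereas resting microglia and naive T cells seldom divide.

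Many promoters of the members carried letters of these switches, and 9 are printed for genes whose values the results give, with and without those letters. RefSeq windows on GRCm38.p6, from 250 bases before to 50 bases after the annotated start, matched 33 of the 40 members (35 windows, 2 each for Mcm7 and Cep55). Each line below gives the strand of the gene up to the start, 5′ to 3′, with up to 150 bases; any bases that lie in an annotated exon were left out, so Cdc20 has 141, Cdk1 124, Ube2c 119 and Rrm2 137. Capitals mark TTTGAA (the core of the cell cycle homology region, CHR), CCAAT, and the E2F letters TTTGGCGC, TTTCCCGC or TTTGGCGG, on either strand; the motifs did not overlap in these lines. The first 6 are mitosis genes and the last 3 replication genes.
Mki67 (chr7:135716380-135716529, minus strand): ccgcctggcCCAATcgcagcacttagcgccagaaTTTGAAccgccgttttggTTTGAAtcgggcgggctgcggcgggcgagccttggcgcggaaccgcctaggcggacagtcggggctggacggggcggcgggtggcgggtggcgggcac
Top2a (chr11:99024190-99024339, minus strand): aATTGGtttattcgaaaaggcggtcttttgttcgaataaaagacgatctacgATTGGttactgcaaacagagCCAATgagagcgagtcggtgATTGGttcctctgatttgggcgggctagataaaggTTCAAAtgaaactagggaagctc
Cdc20 (chr4:118437353-118437493, minus strand): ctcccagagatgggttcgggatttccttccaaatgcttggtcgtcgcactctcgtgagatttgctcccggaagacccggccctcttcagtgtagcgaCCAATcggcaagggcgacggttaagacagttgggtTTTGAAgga
Cdk1 (chr10:69352939-69353062, minus strand): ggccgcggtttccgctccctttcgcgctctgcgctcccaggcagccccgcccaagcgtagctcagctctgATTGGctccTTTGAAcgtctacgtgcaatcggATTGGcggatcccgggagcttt
Ube2c (chr2:164769779-164769897, plus strand): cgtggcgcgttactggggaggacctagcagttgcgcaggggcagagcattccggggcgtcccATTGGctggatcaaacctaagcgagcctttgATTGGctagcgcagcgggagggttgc
Birc5 (chr11:117849087-117849236, plus strand): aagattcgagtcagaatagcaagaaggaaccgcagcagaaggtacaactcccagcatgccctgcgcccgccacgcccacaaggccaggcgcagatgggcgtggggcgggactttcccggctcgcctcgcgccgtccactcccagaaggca
Mcm5 (chr8:75109359-75109508, plus strand): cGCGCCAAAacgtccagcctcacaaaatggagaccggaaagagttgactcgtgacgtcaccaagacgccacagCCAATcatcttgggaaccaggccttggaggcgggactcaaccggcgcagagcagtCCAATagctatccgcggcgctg
Mcm6 (chr1:128359706-128359855, minus strand): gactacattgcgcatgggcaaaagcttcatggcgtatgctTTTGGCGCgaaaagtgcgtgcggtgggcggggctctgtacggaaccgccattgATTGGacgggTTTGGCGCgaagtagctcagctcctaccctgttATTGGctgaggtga
Rrm2 (chr12:24708104-24708240, plus strand): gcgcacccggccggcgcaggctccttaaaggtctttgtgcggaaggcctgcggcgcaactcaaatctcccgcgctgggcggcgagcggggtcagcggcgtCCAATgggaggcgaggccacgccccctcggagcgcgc

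The lines shown have TTTGAA in 4 of the 6 mitosis genes. That of Ube2c shows only CCAAT, because the 1 TTTGAA of its window lies beyond the end of the printed line. That of Birc5 has none of the letters. Mcm5 and Mcm6 have E2F letters and Rrm2 has none. Over all windows the 2 lists carried different letters. TTTGAA was in 13 of the 20 windows of mitosis members (65.0%) and in 1 of the 14 of replication members, that of Mcm2, against 17.9% of all 32851 windows. The E2F letters were in 5 of 14 replication windows (35.7%; Hells, Mcm3, Mcm5, Mcm6 and Mcm7) and in 0 of 20 mitosis windows, against 2.10% of all windows. CCAAT was frequent in both lists, at 75% of mitosis and 71.4% of replication windows, against 37.4% of all. Windows with both TTTGAA and CCAAT made up 55.0% of the mitosis windows and 6.95% of all windows. Hmgb2, a member of neither list that codes for a chromatin protein abundant in dividing cells, had both. The windows of Ccnb1 (2 CCAAT) and Pcna (1 CCAAT) had neither TTTGAA nor the E2F letters. A match describes the letters of a window and is not evidence of binding.

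The control library held 5376 retained cells with 46798801 UMIs (median 7296.5 per cell) and the metformin library held 4570 cells with 44065564 UMIs (median 7925.5). Cells were clustered on genes other than those of the cell cycle, with the aim of keeping dividing cells with their own kind. The 40 clusters were grouped into 27 classes, 13 of which held at least 50 cells in each library. A name ending in "-like" rests on markers of that cell type, and the other classes are called by their leading genes. Ptprc, the CD45 gene, had a UMI in 92.4% and 93.1% of retained cells. Microglia-like cells, which usually carry less CD45 than blood leukocytes, were 18.1% of thinned control and 14.6% of thinned metformin cells. The libraries shared 9 barcodes, 8 of them among retained cells. Because deep cells show more members, shares of cells were counted after each cell was thinned to 3584 UMIs, which left 4839 control and 4142 metformin cells.

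Over all cells the 40 members differed widely in level, given in CPM, UMIs of the gene per 1000000 UMIs. For these 3′ tags CPM is a share of the captured molecules and is not divided by gene length. Hmgb2 was the most counted, at 471 CPM in control and 565 CPM in metformin, and Bub1, a spindle checkpoint kinase, the least, at 2.88 and 4.31 CPM. Stmn1, which destabilises microtubules, was at 108 and 118 CPM. Of the replication members, Slbp, which binds the stem loop of histone mRNAs, was at 81.9 and 89.3 CPM, and Pcna, the sliding clamp of DNA polymerase, at 54.7 and 60.5 CPM. Those 2 were followed by Mcm6 (46.9 and 50.4 CPM) and Mcm3 (37.2 and 39.8 CPM), both subunits of the helicase. The most counted mitosis members were Cenpa, the histone variant of centromeres (68.4 and 72.7 CPM), and Top2a, which untangles chromosomes (58.6 and 61.9 CPM). Cks2, a small partner of cyclin-dependent kinases, was at 57.1 and 56.1 CPM, Mki67, the Ki-67 antigen that coats mitotic chromosomes, at 55.4 and 56.6 CPM, and Ube2c, which feeds ubiquitin to the anaphase-promoting complex, at 37.3 and 49.2 CPM. Hist1h2ap, a histone H2A gene of the cluster transcribed during replication, was at 27.1 and 46.1 CPM.

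These transcripts lay in few cells, and the mitosis members in far fewer than the replication members. The 22875 mitosis UMIs of the control library lay so unevenly that 47 cells, 0.874% of all, held 50% of them. In the metformin library 47 cells (1.03%) held 50% of 24589. The richest single cell held 527 mitosis UMIs in control and 579 in metformin. Of the replication UMIs (20354 and 20664), 50% lay in 260 and 219 cells, and the richest 1% of cells held 27.1% and 24%, against 53.7% and 49.7% of the mitosis UMIs.

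Most cells showed no mitosis member and a small tail showed many. After thinning, 3148 of 4839 control cells (65.1%) had 0 of the 22 mitosis members, 266 had exactly 2 and 54 exactly 3, and the highest count was 19. Cells with at least 3 were taken as cells with mitosis genes, which put the cut where counts were still falling, so that this class is a range and not a type. By that cut 182 control cells (3.76%, interval 3.24 to 4.34) and 175 metformin cells (4.23%, interval 3.63 to 4.88) had mitosis genes, a ratio of 1.12 (interval 0.908 to 1.39). Cells with at least 4 of the 15 replication members were 187 (3.86%) and 204 (4.93%), a ratio of 1.27 (interval 1.04 to 1.56). Only part of them coincided: 82 control cells passed both cuts, 105 the replication cut alone and 100 the mitosis cut alone, and the metformin cells numbered 80, 124 and 95. Without thinning the mitosis shares were 9.58% and 10.6%.

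**Figure D1:**
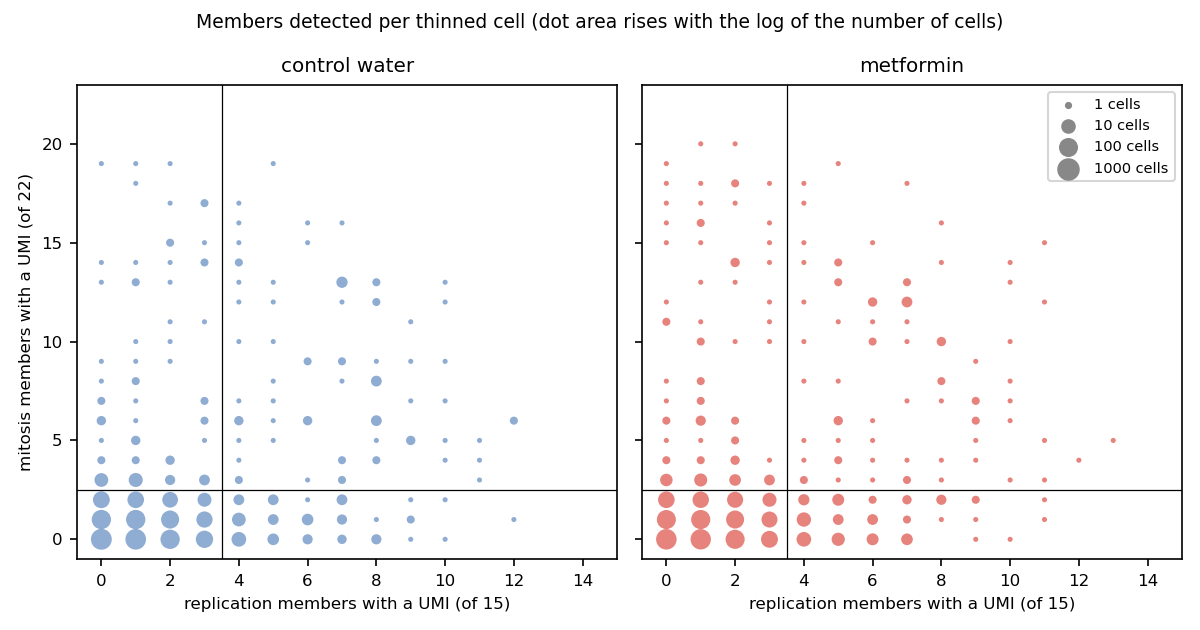
Cells placed by the number of replication members (horizontal axis) and of mitosis members (vertical axis) detected in the cell after thinning to 3584 UMIs. Dot area rises with the logarithm of the number of cells, and control water and metformin cells are drawn separately. Added up over the replication counts, the cells fall from 3148 control cells with 0 mitosis members to 54 with 3. A low tail continues beyond them in both libraries.

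How much of a member's signal lay in cells with mitosis genes set the members apart. For each gene the share of its UMIs in cells with at least 3 other mitosis members was taken, so that a gene did not pick its own cells; a gene of the mitosis list has 1 gene fewer to pick them by. The median over mitosis members was 87.4% in control and 89.3% in metformin, and 20 of 22 had at least 75% in both libraries. Ccna2, the cyclin of replication and early mitosis, was highest (97.4% and 97.6%), followed by Birc5 (97.0% and 96.9%), the survivin subunit of the chromosomal passenger complex. The exceptions were Cenpa (44.3% and 49.9%) and Cks2 (45.0% and 52.6%), whose transcripts were also spread over cells with few other mitosis genes.

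The replication members were spread more widely, with a median of 54.6% in control and 56.5% in metformin, and only 2 of 15 reached 75% in both. One of these was Rrm2 (93.2% and 91.7%), the inducible subunit of ribonucleotide reductase, and the other Tk1 (78.4% and 81.3%), thymidine kinase. Tyms, thymidylate synthase, was next at 68.9% and 71.0%. At the other end stood Slbp (28.0% and 29.8%) and Pcna (37.0% and 38.6%), most of whose molecules were in cells without mitosis genes. Of the 3 genes in neither list, Stmn1 (85.3% and 83.4%) and Hist1h2ap (79.5% and 83.3%) were above 75% in both libraries. Most mitosis members were too, as were Rrm2 and Tk1 of the replication members. Hmgb2 was at 55.6% and 58.6%. Cells with mitosis genes were also deep, with a median of 14179 UMIs against 6926 in the other control cells and 16960 against 7528 in metformin; what part of these shares follows depth was not tested.

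**Figure D2:**
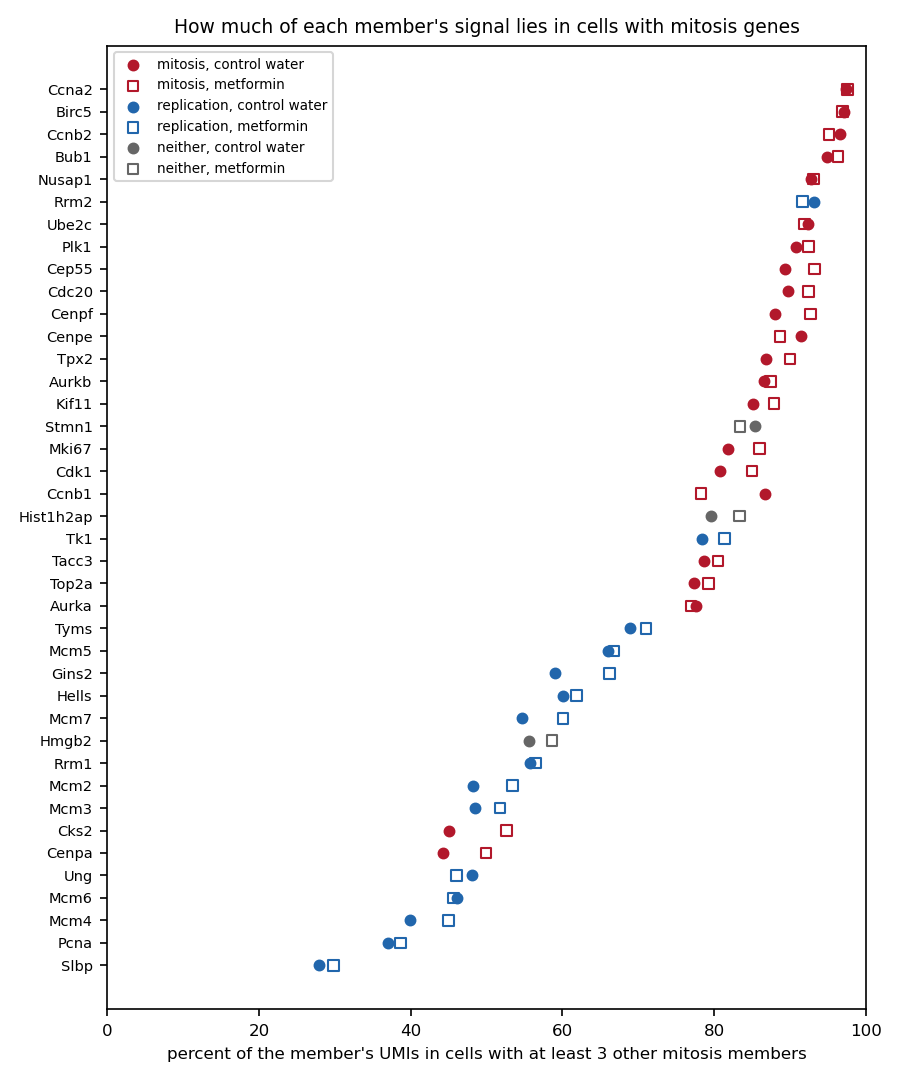
Percent of each member's UMIs that lay in cells with at least 3 other mitosis members (horizontal axis), 1 row per member, filled circles for control water and open squares for metformin, coloured by list. Mitosis members lie to the right, from about Ccna2 at 97.4% down, while Slbp at 28.0% and Pcna at 37.0% lie lowest, and both libraries give nearly the same place to each gene.

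Cells were then divided by the other members into 4 states: neither list, replication only, both lists, or mitosis only (unthinned, with the gene itself left out). All 22 mitosis and all 15 replication members had their highest CPM in cells with both lists, in both libraries. The states differed in which genes came with the first list alone. Helicase genes were higher in cells with replication genes only and back near the resting level in cells with mitosis genes only. Mcm5 went from 7.61 CPM in cells with neither, to 28.7 with replication only, 126 with both and 11.3 with mitosis only in control, and through 7.25, 28.1, 123 and 10.1 CPM in metformin. Mcm2 had 8.64, 24.1, 61.9 and 5.32 CPM in control and 9.09, 25.3, 75.2 and 9.87 CPM in metformin. Pcna moved within a narrower range, from 40.8 to 58.8, 150 and 38.2 CPM in control.

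Of the enzymes of nucleotide supply, Rrm1, Rrm2 and Tyms rose by a smaller factor than the helicase genes from cells with neither list to cells with replication genes only. Rrm2 stood at 1.58 CPM in cells with neither list, 2.19 with replication only, 146 with both and 2.38 with mitosis only in control, and at 2.01, 3.18, 141 and 4.06 CPM in metformin. Tyms had 10.5, 13, 150 and 17.4 CPM in control and 9.51, 15.3, 146 and 18.2 CPM in metformin. It too was far lower outside the cells with both lists. Rrm1, the large subunit of ribonucleotide reductase, had 12.9, 14.9, 103 and 15.1 CPM in control and 13.2, 18.8, 103 and 17.8 CPM in metformin. Tk1 had 2.62, 5.36, 68.6 and 2.41 CPM in control, an order like that of the helicase genes. In metformin it had 2.60, 4.13, 70.3 and 6.99 CPM, and that order did not hold. Of the 15 replication members 11 were lower in mitosis-only than in replication-only cells with the interval below 1 in both libraries; the other 4 were Tyms, Tk1, Rrm1 and Rrm2, the nucleotide enzymes. The mitosis-only over replication-only ratio was 0.394 and 0.361 for Mcm5, 0.221 and 0.389 for Mcm2, and 1.09 and 1.28 for Rrm2.

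Mitosis members ran the other way. Ccnb2, cyclin B2, had 0.759 CPM in cells with neither, 0.776 with replication only, 121 with both and 35.7 with mitosis only in control, and its mitosis-only level was 46.0 times its replication-only level there and 26.9 times in metformin. Mki67 had 11.2, 17.4, 358 and 53.2 CPM in control and 9.15, 12.2, 334 and 95.1 CPM in metformin. The interval of that ratio was above 1 in both libraries for 18 of 22 mitosis members; Cdk1, Aurka, Aurkb and Bub1 had intervals that included 1 in control. Cenpa had a high resting level of 44.1 CPM and 135 CPM in mitosis-only cells of the control library. Hist1h2ap had 167 CPM in control cells with both lists and 271 in metformin, against 9.62 and 19.2 with mitosis only. These states were cut from the same kind of gene that is read in them, so the values are a description with no test.

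**Figure D3:**
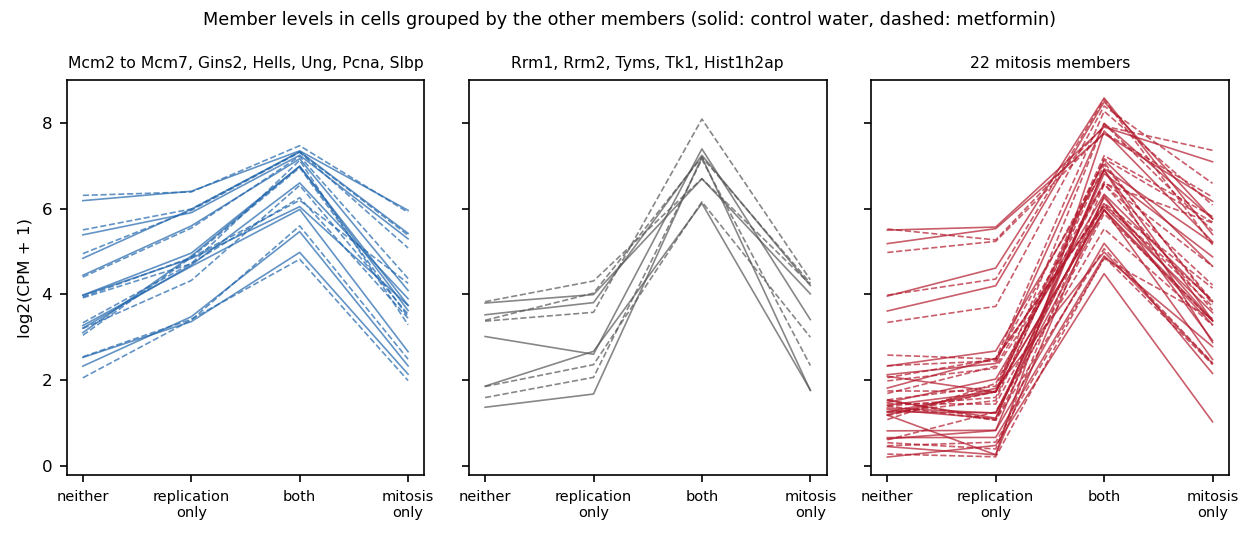
Level of each member as log2(CPM + 1) (vertical axis) in cells with neither list, replication genes only, both, or mitosis genes only among the other members (horizontal axis), solid lines for control water and dashed for metformin. The helicase group (left) has its second level in replication-only cells, Rrm2 and its neighbours (middle) peak only with both lists, and the mitosis members (right) stay raised in mitosis-only cells.

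Cells with mitosis genes were mostly T cells. Regulatory T-like cells had the largest share with mitosis genes among the 13 classes with 50 cells in each library: 38 of 245 in control (15.5%, interval 11.2 to 20.7) and 39 of 250 in metformin (15.6%, interval 11.3 to 20.7). CD8 T-like cells followed with 43 of 564 (7.62%, interval 5.57 to 10.1) and 69 of 604 (11.4%, interval 9.0 to 14.2), and CD4 conventional T-like cells with 34 of 548 (6.20%) and 17 of 331 (5.14%). These 3 classes made up 28.0% of control and 28.6% of metformin cells but 63.2% and 71.4% of the cells with mitosis genes. The intervals of the CD8 and CD4 T-like shares overlapped in control and did not in metformin, and those of the regulatory and CD8 T-like shares did not overlap in control and did in metformin. Thinning, which leaves out shallow cells, kept 245 of 327 and 250 of 302 regulatory T-like cells. It kept 564 of 624 and 604 of 637 CD8 T-like cells. Without thinning the shares with mitosis genes were 24.5% and 24.5% in regulatory and 18.3% and 23.4% in CD8 T-like cells.

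The remaining classes had few such cells. The shares were 2.03% and 3.34% in the C4b/Ccl12 microglial cluster, 1.94% and 2.18% in B-like cells and 0.990% and 2.78% in Arg1 macrophage-like cells. In microglia-like cells 1 of 878 control and 1 of 605 metformin cells passed (0.114% and 0.165%), which was read as the background of the cut in a class that seldom divides. In naive T-like cells it was 1 of 128 and 0 of 115, which allows a share of up to 2.61%. The median microglia-like cell held 6696.5 UMIs in control and 6805 in metformin, and the shares were compared at equal depth. B-like cells had been set beside these as a class with little division, but their share was above that of microglia-like cells. Among small classes, 7 of 15 control and 1 of 15 metformin cells passed in the Mpo/Elane cluster (genes of granulocyte precursors), 6 of 12 and 1 of 13 in the Mcpt4/Cma1 cluster (mast cell proteases), and 8 of 83 and 0 of 41 in monocyte-like cells. The Mpo/Elane cluster also had 4 of 5 regulatory T markers, and Ighg2b, Jchain and Cenpf among its leading genes, so its cell type was not settled. Of neutrophil-like cells 0 of 30 and 0 of 3 passed.

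NK-like cells held replication members more often than mitosis members. They had 18 of 403 control and 23 of 527 metformin cells with replication genes (4.47% and 4.36%) but 9 and 7 with mitosis genes (2.23% and 1.33%), and 15 and 19 of the first passed the replication cut alone. Their replication UMIs per mitosis UMI numbered 1.75 and 2.41, against 0.890 and 0.840 over all cells, 0.943 and 0.557 in CD8 T-like cells and 0.410 and 0.655 in regulatory T-like cells. It did not follow the share of cells with mitosis genes alone, being 3.46 and 3.03 in microglia-like and 3.24 and 2.73 in naive T-like cells but 1.45 and 1.67 in gamma-delta T-like cells (1 of 57 and 0 of 47 with mitosis genes) and 1.76 and 1.26 in Pf4/Mrc1 macrophage-like cells (0 of 47 and 1 of 69). Control cells with neither list held 71.6 CPM of Slbp and 40.8 CPM of Pcna, against 0.759 CPM of Ccnb2 and 1.40 CPM of Cdc20. Other members of both lists went the other way, with Cenpa at 44.1 and Cks2 at 35.3 CPM but Rrm2 at 1.58 and Tk1 at 2.62 CPM. The Klra1/Klra6 T cluster, whose leading genes are inhibitory receptors shared with NK cells, had replication genes in 5.18% and 3.19% of cells and mitosis genes in 1.20% and 0 of 282, which allows up to 1.06%, and its ratio was 1.13 and 3.18.

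**Figure D4:**
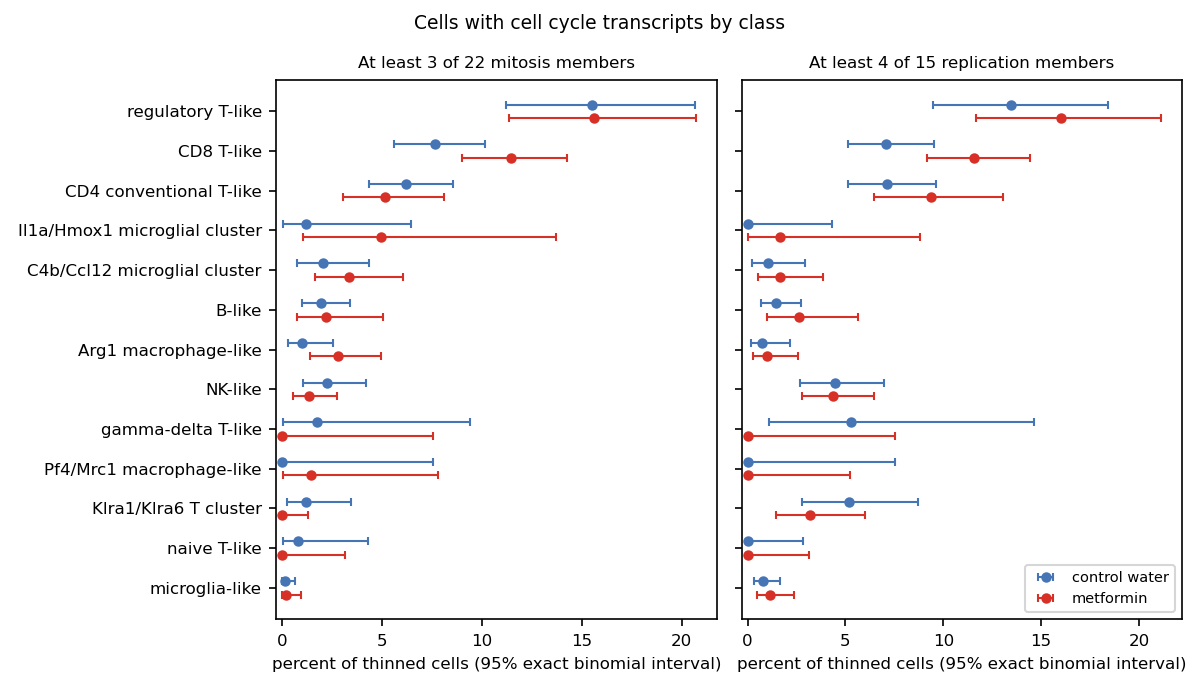
Percent of thinned cells with at least 3 of 22 mitosis members (left) and at least 4 of 15 replication members (right) in the 13 classes with 50 or more cells in each library, points with exact binomial intervals, control water and metformin side by side. Regulatory T-like cells lie highest at 15.5% and 15.6% for mitosis genes, CD8 T-like cells at 7.62% and 11.4%, and microglia-like cells near 0.

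Single members gave nearly the same order of classes. Mki67 was at 302 CPM in control and 251 CPM in metformin regulatory T-like cells, 79.9 and 140 in CD8 T-like, 85.2 and 71.3 in CD4 conventional T-like, 34.2 and 26.7 in B-like, 18 and 17.1 in NK-like, 1.62 and 3.21 in microglia-like and 2.0 and 2.25 CPM in naive T-like cells. Top2a went from 278 and 212 CPM in regulatory T-like to 2.36 and 3.42 CPM in microglia-like cells. Cdk1, the kinase that drives entry into mitosis, spanned 87.1 and 63.1 against 4.57 and 4.28 CPM in the same 2 classes, and Ccnb1, its cyclin B1 partner, 55.0 and 40.8 against 0.295 and 5.56 CPM. Mcm2 and Mcm5 were at 34.3 and 46.0 and at 61.3 and 72.3 CPM in regulatory T-like against 6.19 and 3.64 and 5.01 and 3.21 CPM in microglia-like cells. Pcna was nearly flat by comparison: 92.3 and 116 CPM in regulatory T-like, 39.4 and 39.8 CPM in microglia-like, and its highest levels, 120 and 135 CPM, were in the Il1a/Hmox1 microglial cluster, where 1 of 84 and 3 of 61 cells had mitosis genes.

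Markers of cells outside the sort were counted in the cells with mitosis genes. Ptprc had a UMI in 97.7% and 97.3% of cells with mitosis genes. Of a list of 7 glioma or glial genes, 2 were at 0 and any of the others had a UMI in 11 of 515 control and 15 of 483 metformin cells with mitosis genes (2.14% and 3.11%), against 3.23% and 3.38% of the other cells. Any of 5 endothelial or mural genes had a UMI in 31.1% and 27.1% of cells with mitosis genes against 22.4% and 23% of the others, while their summed level was 37.7 and 40.4 CPM against 43.6 and 55.6 CPM, and 1 of the 5 was at 0. Any of 4 erythroid genes had one in 9.71% and 9.11% against 7.04% and 6.02%, with a summed level of 6.72 and 5.13 CPM against 809 and 1396 CPM and 2 of the 4 at 0. These shares were not thinned, and the cells with mitosis genes are the deeper ones; the part of such transcripts in the results was not tested. Doublet calls removed 59 and 36 barcodes, of which 10 and 6 had mitosis genes.

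Between control water and metformin, the members as a whole were slightly higher with metformin: mitosis UMIs were 489 and 558 CPM over all cells, a ratio of 1.14 (interval 1.12 to 1.16), and replication UMIs 435 and 469 CPM, a ratio of 1.08 (interval 1.06 to 1.10). For 38 of 40 members the metformin library was higher, the exceptions being Hells and Cks2, while 44.3% of all 14085 genes with enough UMIs were higher. The interval was above 1 for 23 members, against 16.1% of those genes (16 mitosis and 4 replication members and the 3 in neither list). One member alone differed by 1.5-fold or more over all cells, where 3.66% of genes were higher and 2.83% lower by that fold: Hist1h2ap, with 1266 and 2031 UMIs and a ratio of 1.70 (interval 1.59 to 1.83). The intervals treat molecules as independent although 50% of the mitosis UMIs came from 47 cells, so they are too narrow.

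Within classes a member was counted as different when its UMIs over both libraries numbered 40 or more, the groups were 1.5-fold or more apart, and the interval left out 1. By this rule of size CD8 T-like cells had the most members that differed, all in 1 direction. With metformin 27 of 40 members were higher and 0 lower, while of 9424 genes tested 3.2% were higher and 2.03% lower. The 27 were all 22 mitosis members, all 3 in neither list, and Gins2 (ratio 1.72) and Rrm2 (1.80) of the 15 replication members; the median log2 ratio was 0.90 over the members and -0.02 over all genes. The class is that of T cells that kill their targets.

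The 5 members with the highest lower bounds are given first. Cdc20, which activates the anaphase-promoting complex, had 68 UMIs (11.8 CPM) in control and 344 (46.6 CPM) in metformin, a ratio of 3.94 (interval 3.03 to 5.18). Ube2c, which works with the same complex, had 46.0 and 160 CPM, a ratio of 3.49 (interval 3.05 to 4.0). Ccnb1 had 8.18 and 27.1 CPM (ratio 3.31), Cenpf, a kinetochore protein, 24.4 and 70.9 CPM (2.91), and Aurka, the kinase of spindle poles, 3.66 and 14 CPM (3.82), on 21 and 103 UMIs. With clusters made from all variable genes, Ccnb1 turned to 0.944 and Aurka to 0.957. Mki67 and Top2a were less apart, at 79.9 and 140 CPM (1.75) and 97.8 and 171 CPM (1.74). The helicase genes were closer still: Mcm6 had 88.4 and 88.9 CPM (1.0, interval 0.894 to 1.13) and Mcm2 28.9 and 38.2 CPM (1.32). As a sum, CD8 mitosis UMIs were 664 CPM in control and 1473 CPM in metformin, a ratio of 2.22 (interval 2.14 to 2.30), and replication UMIs 626 and 821 CPM, a ratio of 1.31 (interval 1.26 to 1.37).

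More CD8 cells with mitosis genes and more mitosis UMIs in each went together. The share of CD8 T-like cells with mitosis genes was 1.5 times as high with metformin (interval 1.01 to 2.25), from 7.62% to 11.4%, and the share with replication genes 1.63 times (interval 1.09 to 2.47), from 7.09% to 11.6%. Without thinning, the cells with mitosis genes (114 and 149) held 1957 CPM of mitosis UMIs in control and 3507 CPM in metformin, while the other cells held 127 and 143 CPM. Cells with at least 10 mitosis members were 4.33% and 8.16% of CD8 T-like cells, and the 10 richest cells held 42.4% and 33.8% of the class's mitosis UMIs. The cells with mitosis genes were deeper in metformin, with a median of 17091 UMIs against 13629; its part in the result was not tested. CD8 T-like cells made up 23.6% of control and 39.4% of metformin cells with mitosis genes, and 11.7% and 14.6% of all cells.

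The 5 clusters within the CD8 T-like class did not move alike. In the cluster led by the granzyme genes Gzmd, Gzmg and Gzme, which held 24% of the control and 35.5% of the metformin class, mitosis CPM was 704 and 1942, a ratio of 2.76. It was 436 and 1766 CPM (ratio 4.05) in the cluster led by Gramd3 and Nr4a2 and 189 and 698 CPM (3.70) in the one with interferon-induced genes such as Ifit1 and Ifit3. Few thinned cells had mitosis genes there: 4 of 72 and 13 of 104 in the Gramd3 cluster, and 1 of 125 and 3 of 94 in the Ifit1 cluster. Without thinning the Ifit1 cluster had 11.9% in control and 9.90% in metformin, so its share was not higher with metformin. The cluster led by Rgs16, Prf1 and Ifng was at 1188 and 1406 CPM (1.18), and that with Gzmk, Ccl5 and Themis went the other way, at 638 and 489 CPM (0.767). A pair of checks of the class, both chosen after the data were seen, gave smaller ratios. With each cell weighted equally the CD8 mitosis ratio was 1.97. With cells picked by their own Cd3, Cd8a, Cd8b1, Cd4 and Foxp3 UMIs (779 and 775 cells) it was 1.63 (interval 1.58 to 1.69), with 21 members higher and 0 lower. In the CD8 cells so picked, the thinned shares with mitosis genes were 6.24% (interval 4.59 to 8.26) and 8.43% (interval 6.54 to 10.7). These intervals overlapped. When clusters were made from all variable genes, cell cycle genes included, 1 cluster of 71 control and 85 metformin cells held cells with mitosis genes from several T classes. It was counted as CD8 T-like, and the CD8 mitosis ratio was then 1.07 with 3 members higher.

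The regulatory T-like class, of Foxp3 cells that damp immune responses, differed in the opposite direction. With metformin 7 members were lower and 0 higher, all 7 of them mitosis members, and 10 of the 81 other cell cycle genes with enough UMIs were lower and 0 higher, against 3.13% of 8237 genes lower and 1.43% higher; the median log2 ratio was -0.27 over the members and -0.03 over all genes. Cdc20 had 70.5 CPM in control and 27.1 CPM in metformin, a ratio of 0.384 (interval 0.289 to 0.505). Ube2c had 234 and 115 CPM (ratio 0.491), Nusap1, a spindle microtubule binder, 96.3 and 49.0 CPM (0.508), Plk1, the polo-like kinase, 30.6 and 16.3 CPM (0.533), and Cks2 182 and 118 CPM (0.652). The other 2 were Aurka (25.1 and 14.8 CPM) and Ccna2 (56.8 and 35.6 CPM). Ratios were below 1 for all 22 mitosis members, with the interval below 1 for 19, and above 1 for 14 of 15 replication members, with the interval above 1 for 4 (Pcna, Mcm3, Hells and Mcm2). Stmn1 (0.755) and Hmgb2 (0.932) also had intervals below 1.

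The regulatory T-like share of cells did not follow that difference. It was 15.5% and 15.6%, a ratio of 1.01 (interval 0.627 to 1.62), whereas summed mitosis UMIs were 2292 and 1624 CPM, a ratio of 0.708 (interval 0.681 to 0.736), and replication UMIs 939 and 1063 CPM, a ratio of 1.13 (interval 1.07 to 1.19). The difference lay in cells with mitosis genes, which held 4532 CPM in control and 3280 CPM in metformin, against 234 and 226 CPM in the other cells. It rested on few cells: the 10 richest held 56.1% and 50.4% of the class's mitosis UMIs, and with each cell weighted equally the ratio was 0.927. Picked by their own transcripts, regulatory T cells (241 and 205) gave 0.728 (interval 0.696 to 0.762) with 8 members lower and 0 higher. With clusters from all variable genes the ratio was 0.942, with 1 member lower and 2 higher, and Ube2c reversed to 1.87.

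CD4 conventional T-like cells, the helper T cells, differed in 2 members. Against 1.34% of 9016 genes higher and 3.14% lower, Hist1h2ap was higher with metformin (23.4 and 72.2 CPM, ratio 3.09, interval 2.48 to 3.85) and so was Plk1 (5.34 and 10.1 CPM, ratio 1.90, interval 1.13 to 3.22, on 29 and 35 UMIs), and 0 members were lower. Of the 249 metformin UMIs of Hist1h2ap 75 came from 1 cell, and without the richest cell of each library the ratio was 2.66. With clusters from all variable genes it turned to 0.837. Summed mitosis UMIs were 645 and 662 CPM (ratio 1.03, interval 0.973 to 1.08) and replication UMIs 610 and 658 CPM (1.08, interval 1.02 to 1.14). The share ratio was 0.828 (interval 0.434 to 1.52). The sum joined clusters that differed in direction. Their mitosis ratios were 0.634 (led by Ccl1 and Penk), 0.697 (Ifit1 and Slfn5), 1.27 (Cd4 and Cxcr6) and 4.13 (Tcf7 and Slamf6). In the last of these only 1 of 135 control and 5 of 109 metformin cells had mitosis genes after thinning.

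**Figure D5:**
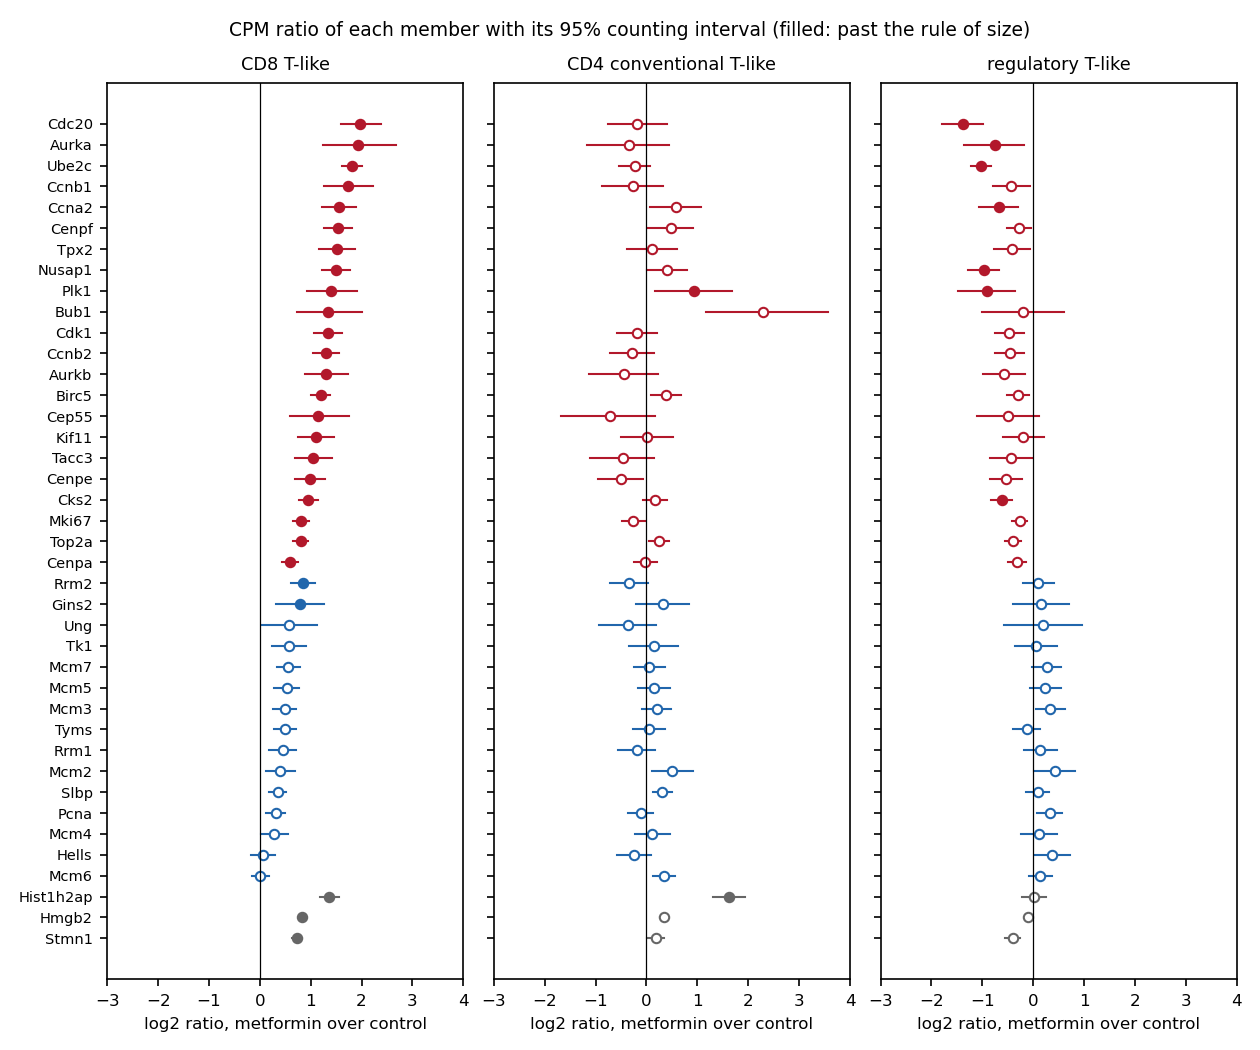
Metformin over control for each of the 40 members as log2 ratio of CPM with its interval (horizontal axis), in CD8 T-like, CD4 conventional T-like and regulatory T-like cells, members ordered by list and by their CD8 ratio. In CD8 T-like cells all 22 mitosis members lie above 0 and in regulatory T-like cells all 22 lie below 0, with Cdc20 at a ratio of 3.94 in the first and 0.384 in the second.

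The other classes had fewer members with enough UMIs than the T cell classes above, and the directions differed between them. In NK-like cells 3 of 26 members were higher with metformin (Pcna 1.60, Rrm2 2.15 and Hist1h2ap 2.01) and 2 lower (Cenpe 0.524 and Ube2c 0.495), against 1.38% of genes higher and 1.95% lower, and the summed ratio was 0.845 for mitosis and 1.16 for replication UMIs; the first turned to 1.14 with the stricter cell filter. The C4b/Ccl12 microglial cluster had 6 of 27 higher (Ccnb1 6.06, Ube2c 3.46, Ccnb2 2.29, Tacc3 2.28, Cenpa 1.81 and Birc5 1.64) and 2 lower (Rrm2 0.335 and Top2a 0.514), against 2.04% higher and 3.53% lower, with summed ratios of 1.47 and 0.863, the second of which turned to 1.07 and 1.10 under other clusterings. Arg1 macrophage-like cells had 4 of 28 higher (Hist1h2ap 3.88, Hells 2.11, Stmn1 1.70 and Top2a 1.64) and 0 lower, against 2.78% and 2.58%. In B-like cells 2 of 33 were higher (Mcm2 1.85 and Ube2c 1.63) and 3 lower (Tyms 0.384, Top2a 0.621 and Hist1h2ap 0.648), against 2.06% and 2.38%, and Ube2c turned to 0.160 without the richest cell. In microglia-like cells Hist1h2ap was the 1 of 18 that was higher (1.75) and 0 were lower, against 0.984% and 1.22%. The smallest of these classes had few members to count. In the Il1a/Hmox1 microglial cluster 2 of 8 were higher and 1 lower, against 3.4% and 4.04%, with a summed mitosis ratio of 2.70. In Pf4/Mrc1 macrophage-like cells 1 of 6 was higher, against 3.51%. In naive T-like cells 1 of 8 was lower, against 2.33%, and in gamma-delta T-like cells 0 of 3 differed, against 2.66% higher and 3.51% lower.

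The Klra1/Klra6 T cluster had 13 of 24 members lower with metformin and 0 higher, against 3.19% and 1.41% of genes, and the mitosis sum was 410 and 118 CPM, a ratio of 0.287. That ratio was 0.635 with each cell weighted equally, 0.479 without the richest cell of each library and 0.999 with clusters from all variable genes. The richest control cell held 453 of the 979 mitosis UMIs, the 10 richest held 79.0%, and 74 of the 95 control UMIs of Ube2c came from 1 cell. Hist1h2ap was the member that differed in most classes: it was higher in 5 (CD8 T-like, CD4 conventional T-like, NK-like, Arg1 macrophage-like and microglia-like) and lower in 2 (B-like and Klra1/Klra6) of the 9 in which it was counted. It shares near-identical sequence with other histone H2A genes, so how the counting divided their reads is uncertain. How fully histone mRNAs were captured was not tested.

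Other histone genes were read beside Hist1h2ap, from a list added after its value was seen that includes it. In cells with both lists 46 histone genes had at least 40 UMIs, and their median metformin over control ratio was 1.20, against 0.958 over the 10210 genes tested in those cells. Ratios were above 1 for 36 of the 46, against 40.2% of genes, and 6 were higher and 0 lower by the rule of size, against 2.48% and 5.52%. Hist1h2ae, another H2A gene, had 216 CPM in control and 306 in metformin (ratio 1.42) and Hist1h4d, an H4 gene, 156 and 212 CPM (1.36). The 5 linker histone genes with enough UMIs gave ratios of 1.36 (Hist1h1d), 1.04 (Hist1h1c), 0.986 (Hist1h1a), 0.957 (Hist1h1b) and 0.893 (Hist1h1e).

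Other cell cycle genes, 94 in 8 lists, were read in cells with mitosis genes against the rest of the same class, a comparison made in both libraries and counted when both passed the rule of size. The background was 6.17% higher and 2.46% lower in CD8 T-like cells, 3.83% and 2.61% in CD4 conventional T-like cells and 9.75% and 7.84% in regulatory T-like cells. Counts are given of the genes with enough UMIs, as the background is. The cells were picked by mitosis genes, and many listed genes belong to the same phases, so the counts are a description with no test. Of the 40 other genes of replication and mitosis, 31 of 32, 26 of 27 and 31 of 33 were higher in those 3 classes and 0 lower, among them Tuba1b, an alpha-tubulin (7.23 and 10.4 times in CD8 T-like cells). Of the 10 genes of origin licensing and firing, 5 of 7, 2 of 4 and 5 of 6 were higher, including Gmnn and Orc6 in each of the 3. The E2F, pocket protein and DREAM genes gave 4 of 10, 0 of 6 and 2 of 7 of the 15 listed (E2f1, E2f2, Rbl1 and Lin9 in CD8 T-like cells). In CD4 conventional T-like cells E2f1 (29 UMIs with mitosis genes and 10 without in control, 30 and 10 in metformin), Foxm1 (20 and 1, 12 and 2) and Mybl2 (16 and 1, 9 and 2) had too few UMIs to be counted, and their ratios were 6.89 and 6.65, 47.5 and 13.3, and 38.0 and 9.98. Checkpoint genes and phosphatases gave 4 of 5, 1 of 4 and 3 of 5 of the 9 listed, with Mad2l1, a spindle checkpoint protein, in each class.

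The regulators of entry into the cycle split. Ccne1, cyclin E1, was higher in cells with mitosis genes in CD8 T-like (3.37 and 2.51 times) and regulatory T-like cells (4.71 and 5.76 times), whereas Ccnd2, cyclin D2, was lower there (0.627 and 0.650, and 0.611 and 0.645). The inhibitor gene Cdkn2c (p18) was higher in all 3 classes, at 1.70 and 2.73 times in CD8, 2.31 and 2.26 in CD4 conventional and 2.22 and 1.87 in regulatory T-like cells. Cdkn1a (p21), which arrests cells, was higher in regulatory T-like cells (1.78 and 2.37 times). Of 5 genes of quiescence 3, 3 and 2 were lower, Btg1 and Btg2 in each class: Btg1, an antiproliferative gene, was at 0.636 and 0.561 in CD8 and 0.515 and 0.444 in regulatory T-like cells. Klf2, which keeps T cells resting, was at 0.595 and 0.351 in CD8 and 0.368 and 0.246 in CD4 conventional T-like cells. In those comparisons the cells with mitosis genes were the deeper ones throughout (13116 against 5014 median UMIs in control regulatory T-like cells), and the part of depth was not tested.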

How the data were processed

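Single-cell RNA libraries (10x 3′ kit v3, 1 per group) were used as deposited. The authors' matrices hold UMI counts per gene and barcode, written by matrix software 3.0.0 per the file headers; Cell Ranger, Seurat and build mm10 are listed in the submitters' processing notes, and any filter before deposit is not stated there. The control matrix held 6174 barcodes and 49651404 UMIs, and 5473 barcodes and 47142356 UMIs were in that of metformin.

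Barcodes with under 300 genes (92 and 151), over 10% mitochondrial UMIs (727 and 856) or a Scrublet doublet call at an expected 5% (59 and 36) were removed. Cells of both libraries were clustered (Leiden, 2000 variable genes, 30 principal components, 15 neighbours; scanpy 1.11.5, leidenalg 0.10.2) without the cell cycle lists and 280 other genes correlated over 0.15 with the mitosis members, and classes were named from marker lists. A class's UMIs were added up within each library and divided by all its UMIs (CPM). Shares have exact Clopper-Pearson intervals, CPM exact Poisson intervals, and ratios exact conditional intervals (scipy 1.17.1), all at 95%; a count of 0 was read with a limit of 3. With 1 library per group no p-value was computed. The ratio intervals and the rule of size were checked on simulated counts.

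The members and gene lists were chosen with earlier results of these data known. All 40 members are accounted for. Named in full are the 12 with the most UMIs and a fixed set of 11 by class. In classes whose differing members are listed, up to 5 in each direction were named by the interval bound nearest 1. Further members were named after their values were seen. Alternatives for filters, thinning, cuts, clustering, weighting and count minimum are in the closing section.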

Additional observations from a re-analysis of the deposited data

Results flagged for a closer look

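Mitosis UMIs differed between control water and metformin in opposite directions in 2 T cell classes. In CD8 T-like cells the metformin over control ratio was 2.22 and in regulatory T-like cells 0.708, and the difference between the classes was not tested, since each group is 1 library. The values were 1.97 and 0.927 with each cell weighted equally, 1.63 and 0.728 with cells picked by their own T cell transcripts, and 1.07 and 0.942 with clusters made from all variable genes. Under the last of these the members higher in CD8 T-like cells numbered 3 instead of 27, and in regulatory T-like cells 1 was lower and 2 higher instead of 7 lower. There a cluster of 71 control and 85 metformin cells with mitosis genes from several T classes (20 and 45 CD8 T-like, 27 and 24 regulatory T-like) was counted as CD8 T-like.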

How the results depend on the processing

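Of 182 alternatives of the main results 117 gave about the same value, 63 another value and 2 the other direction. Shares of cells followed the cut and the depth. With 2 mitosis or 3 replication members the mitosis shares were 9.26% (control) and 10.7% (metformin) and the replication shares 8.56% and 9.56%; with 5 or 6 they were 2.36% and 2.78%, and 1.94% and 2.27%. Without thinning they were 9.58% and 10.6%, and 12.9% and 16.4%, and at 5210 UMIs per cell 5.45% and 5.79%, and 6.62% and 7.5%. Cells with at least 2 mitosis members held 89.1% and 91.8% of the mitosis and 59.4% and 62.8% of the replication UMIs, and those with at least 5 held 73.6% and 78.1%, and 39.4% and 41.3%. Counted as cells instead of UMIs, replication over mitosis was 1.03 and 1.17.

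The metformin over control ratios moved with the cells chosen. With at least 500 genes and at most 5% mitochondrial UMIs the mitosis ratio was 1.10 in all cells, 2.13 in CD8, 0.589 in regulatory T-like and, reversed, 1.14 in NK-like cells, the replication ratio was 1.17 in CD4 conventional T-like cells, 6 CD4 members were higher and 1 lower, and 18 regulatory members were lower. With doublets kept the mitosis ratio was 1.16 in all, 0.960 in CD4 and 2.43 in CD8 cells and the replication ratio 1.41 in CD8 and, reversed, 0.996 in CD4 cells, where 1 member was lower. With clusters from all variable genes the mitosis ratios were 1.09 (CD4), 1.07 (CD8) and 0.942 (regulatory), the replication ratios 1.18 (CD8), 1.07 (regulatory) and 1.07 (C4b/Ccl12, reversed), 3 CD8 and 1 CD4 members were higher, and 2 regulatory members were higher and 1 lower; Ccnb1 (0.944) and Aurka (0.957) in CD8, Hist1h2ap in CD4 (0.837) and Ube2c in regulatory cells (1.87) reversed. With the libraries clustered separately the mitosis ratio was 0.958 in CD4 and the replication ratio 1.14 in CD4, 1.03 in regulatory and, reversed, 1.10 in C4b/Ccl12 cells, and 2 CD4 members were lower. Without the richest cell 1 CD4 member was lower, and at a minimum of 100 UMIs 1 was higher. The cause was not tested.

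Added after the data were seen, equal weights gave mitosis ratios of 1.19 (all), 1.09 (CD4), 1.97 (CD8) and 0.927 (regulatory) and replication ratios of 1.19 (CD8) and 1.07 (regulatory); classes from each cell's own transcripts gave 1.63 (CD8) and 1.15 (CD4) for mitosis, 1.04 (regulatory) and 0.922 (CD4, reversed) for replication, and 1 CD4 member lower. No paired analysis was possible because each group is 1 library, and no replicate could be left out for the same reason. Depth limits the rarer members: a class with 47 cells and 0 past the cut allows a share of up to 6.38%.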

Other observations

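Of the barcodes removed by the filters, 739 in control and 867 in metformin, 38 and 54 had at least 3 mitosis members.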
